A study of Arabidopsis thaliana with 12 samples.

Results

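The plastid RNA that came down with AtBE3-YFP was compared with the plastid RNA of the extracts it was taken from. AtBE3 is a starch-branching enzyme of the plastid, and its YFP fusion serves as the control bait for AtMKIP1-YFP, a partner of the splicing factor MatK. Chosen by their labels were the AtBE3-YFP libraries, 3 of precipitate and 3 of input, which are 6 of the 12 libraries of the series; the other 6 are the AtMKIP1-YFP precipitates and inputs. The AtBE3-YFP line carries the fusion under the constitutive UBQ10 promoter in the Col-0 wild type, which has its own AtMKIP1, whereas AtMKIP1-YFP is driven by the same promoter in mkip1-2 mutants. Both fractions of a replicate came from a single pool of 10-day-old seedlings, 10 g each, which carried no other treatment. Seedlings were not separated into tissues, so each value is taken over all tissues of a pool.

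The fractions were not prepared alike. Ribosomal RNA was depleted, and RNA was fragmented by heat, in the inputs and not in the precipitates, and only reads of 18 to 60 nt were kept in either. The size filter and trimming left 30.2%, 23.9% and 25.4% of the raw reads in the precipitates, against 76.8%, 76.3% and 76.3% in the inputs. Of the reads left, 12.0%, 9.15% and 10.1% mapped to the plastid genome in the precipitates, against 25.2%, 25.4% and 25.2% in the inputs. This gave 119799 to 257634 mapped reads per precipitate and 2241732 to 2740959 per input. Preparation and fraction cannot be told apart in any comparison of a precipitate with an input.

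The plastid genome of Arabidopsis encodes the ribosomal RNAs in an operon of the inverted repeat, whose second copy was left out of the mapping. This operon also holds the intron-containing genes trnI-GAU and trnA-UGC. The genome further encodes a set of tRNAs, and proteins of the photosystems, the ATP synthase, the cytochrome b6f complex, the NDH complex, an RNA polymerase and the ribosome. psbA, which encodes the D1 protein of photosystem II, and rbcL, which encodes the large subunit of Rubisco, are among its most strongly expressed genes in green tissue. Most plastid introns are group II introns, and MatK is the splicing factor of a subset of them.

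The deposited tables split the genome into 555 segments for the precipitates and 574 for the inputs, with different borders. Levels are therefore given per annotated feature, as reads per kilobase per 1e6 mapped plastid reads and here called density, and the log2 ratio is that of precipitate to input. Of 134 annotated rRNAs, tRNAs, coding genes and introns, 37 were resolved by segments of their own in the precipitate table and 49 in the input table, and the 22 resolved in both were tested. In edgeR's quasi-likelihood test with Benjamini-Hochberg adjustment over the 22, 18 features were higher in the precipitates at an adjusted p under 0.01 (81.8% of those tested), 3 were lower (13.6%) and 1 was not called. The median log2 ratio was 2.53. With reads outside the rRNAs as the library size, the median was 1.10, which is 1.43 lower, and 15 features were higher (68.2%) and 3 lower (13.6%). TMM factors moved the median to 0.31 and left 10 higher and 6 lower, and DESeq2's size factors moved it to 0.07 and left 7 higher and 9 lower, so the sign of a ratio near the median depends on the scaling and the order of the features does not.

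The sequences below carry the contrasts described next. The first is 60 nt of the 23S rRNA around a position where the ratio changed (plastid genome, TAIR10, nt 106390 to 106449, plus strand), with the side of low ratio in capitals. The second is the 5S rRNA (nt 107949 to 108069, plus strand), the only rRNA tested that was not called lower over all mapped reads, all in capitals. The third is the joined exons of trnG-UCC (nt 8646 to 9431 with the intron left out, plus strand), the only tRNA that could be tested, with the anticodon in capitals. The fourth, from nt 104326 to 104385 of the plus strand, is 60 nt inside the intron of trnA-UGC, with the end of the window of highest ratio in capitals.
rrn23S: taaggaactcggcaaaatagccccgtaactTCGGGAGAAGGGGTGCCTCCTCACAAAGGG
rrn5S: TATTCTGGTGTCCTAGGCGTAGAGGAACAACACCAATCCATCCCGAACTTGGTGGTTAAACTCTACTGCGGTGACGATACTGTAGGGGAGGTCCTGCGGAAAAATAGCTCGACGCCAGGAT
trnG-UCC: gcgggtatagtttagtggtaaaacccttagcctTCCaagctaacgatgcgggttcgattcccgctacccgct
trnA-UGC intron: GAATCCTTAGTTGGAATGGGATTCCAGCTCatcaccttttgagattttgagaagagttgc

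Ribosomal RNA took a smaller share of the plastid reads in the precipitates than in the inputs, although only the inputs had been depleted of it. The 4 rRNAs together took 25.2%, 22.7% and 17.9% of the mapped reads in the precipitates, against 71.5%, 72.3% and 68.8% in the inputs. The means were 21.96% ± 3.72 and 70.9% ± 1.84 (SD, n = 3 each), and the difference of -48.9 percentage points exceeded the spread of both groups (exact two-sided permutation test, p = 0.1, the smallest p that 3 against 3 allows). Of the other classes only tRNA exons, at 1.008% to 1.38% in the precipitates against 2.85% to 3.70% in the inputs, were also smaller in the precipitates. Reads in introns were 6.29% to 8.48% in the precipitates, against 4.25% to 4.74% in the inputs, and reads in coding exons other than psbA and rbcL were 15.5% to 18.2%, against 4.77% to 5.22%. In the inputs the trnK-UUU intron, matK and rps16 lie in a segment shared with psbA. Each was given the mean density of that segment, 9097, against 981 for the trnK-UUU intron and 844 for matK in the precipitates. Their own part in the input shares of introns and coding exons is therefore not known. The rest, mapped reads less those given to features on their own strand, made up 24.9% to 27.5% of the precipitates, against 12.8% to 14.5% of the inputs. It includes reads antisense to genes. Reads in overlapping features, such as matK within the trnK-UUU intron, were subtracted for each of them.

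**Figure D1:**
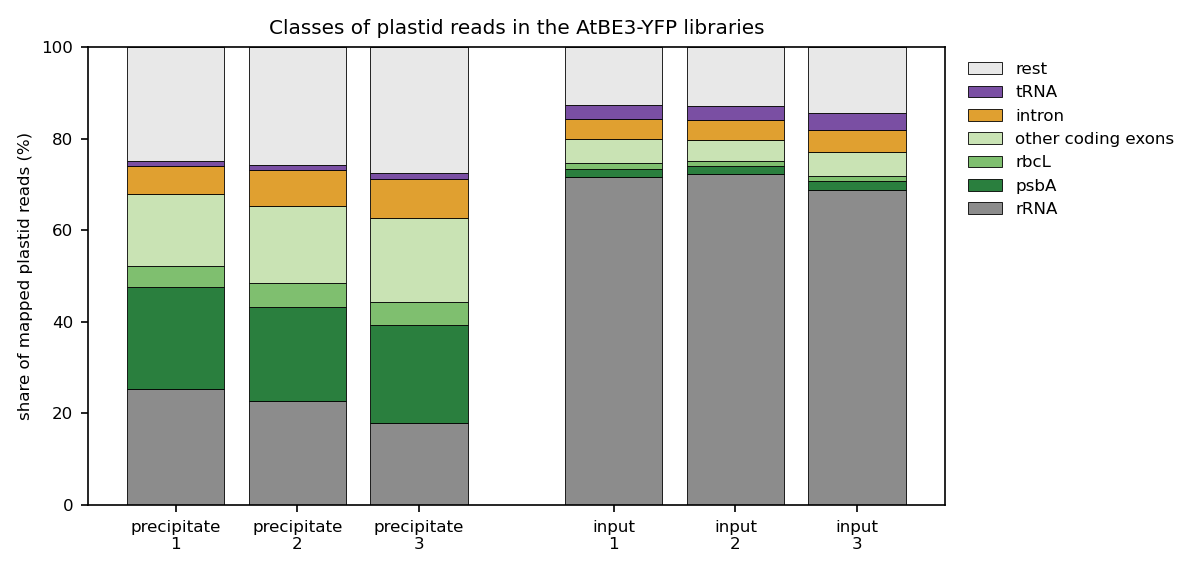
Share of mapped plastid reads (%, y axis) by class in the 3 AtBE3-YFP precipitates (left) and the 3 inputs (right), with each bar a library. The rRNA block at the bottom is 17.9% to 25.2% of the precipitates and 68.8% to 72.3% of the inputs, and the psbA block is above 20% in each precipitate. Segments that span several genes were shared out by length. This blurs the tRNA, psbA, intron and other coding blocks of the table in which their members are not resolved.

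The 16S rRNA (nt 101012 to 102502), which belongs to the small subunit of the ribosome, had the lowest ratio of the 22 features. Its density was 43605, 38271 and 33214 in the precipitates, against 218078, 215845 and 225944 in the inputs. No precipitate came near an input, and the log2 ratio was -2.52 ± 0.15 (SE, edgeR's quasi-likelihood test, adjusted p = 4.95e-10). The 23S rRNA of the large subunit (nt 104691 to 107500) had densities of 60551, 55876 and 42762 in the precipitates, against 133708, 137742 and 119722 in the inputs. Here too the groups were apart, with a log2 ratio of -1.30 ± 0.16 (adjusted p = 1.38e-06). Of the 4 rRNAs, these 2 were lower, 1 was not called and 1 could not be tested.

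The 5S rRNA, also of the large subunit, differed from both. Its density was 87494, 65758 and 44908 in the precipitates, against 40675, 38025 and 51513 in the inputs. Precipitates 1 and 2 lay above every input and precipitate 3 lay among them, and the log2 ratio of 0.61 ± 0.21 did not pass (adjusted p = 0.0118). It passed with the replicate block, at 0.57 (quasi-likelihood test, adjusted p = 0.00504), although the log2 ratios of pools 1, 2 and 3 were 1.11, 0.79 and -0.20. It also passed without precipitate 3, at 0.82, and without input 3, at 0.75. Over reads outside the rRNAs it was negative, at -0.79. It was called lower with TMM factors, at -1.58 (quasi-likelihood test, adjusted p = 0.00248), and under DESeq2, at -1.82 (DESeq2 adjusted p = 3.17e-09). Fitted as a segment of the precipitate table (nt 107946 to 108056) it was called higher, at 0.83 ± 0.17. The 4.5S rRNA (nt 107599 to 107701) had a density of 65374, 49308 and 40009 in the precipitates and lay within a longer input segment, so it was not tested.

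The ratio was uneven along the 23S rRNA. Because few genes had segments of their own in both tables, 44 windows were laid between borders that both tables share within 20 nt, after the data had been seen, and 36 of them were higher (81.8%) and 4 lower (9.09%). The 5′ window (nt 104522 to 105339) had densities of 73303, 72739 and 55945 in the precipitates, against 74095, 65217 and 58883 in the inputs, so the groups overlapped at a log2 ratio of 0.03 ± 0.12. The next windows were higher in the precipitates, at 1.09 ± 0.18 (nt 105340 to 105836) and 1.75 ± 0.16 (nt 105837 to 106419). Over nt 105837 to 106419 the density was 60442, 60347 and 46637 in the precipitates, against 21094, 15380 and 13353 in the inputs. The 3′ window (nt 106420 to 107702, which runs on through the 4.5S rRNA) was lower, with 67536, 55189 and 42737 in the precipitates, against 249836, 268006 and 232394 in the inputs, and a log2 ratio of -2.18 ± 0.13 (adjusted p = 9.83e-13). The capitals of the rrn23S line begin at the border between these neighbours, over which the ratio dropped by more than a factor of 10 under every scaling. The signs of the first 3 windows turned negative under some scalings, the first under all of them, the second under all of them and the third under TMM and DESeq2.

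**Figure D2:**
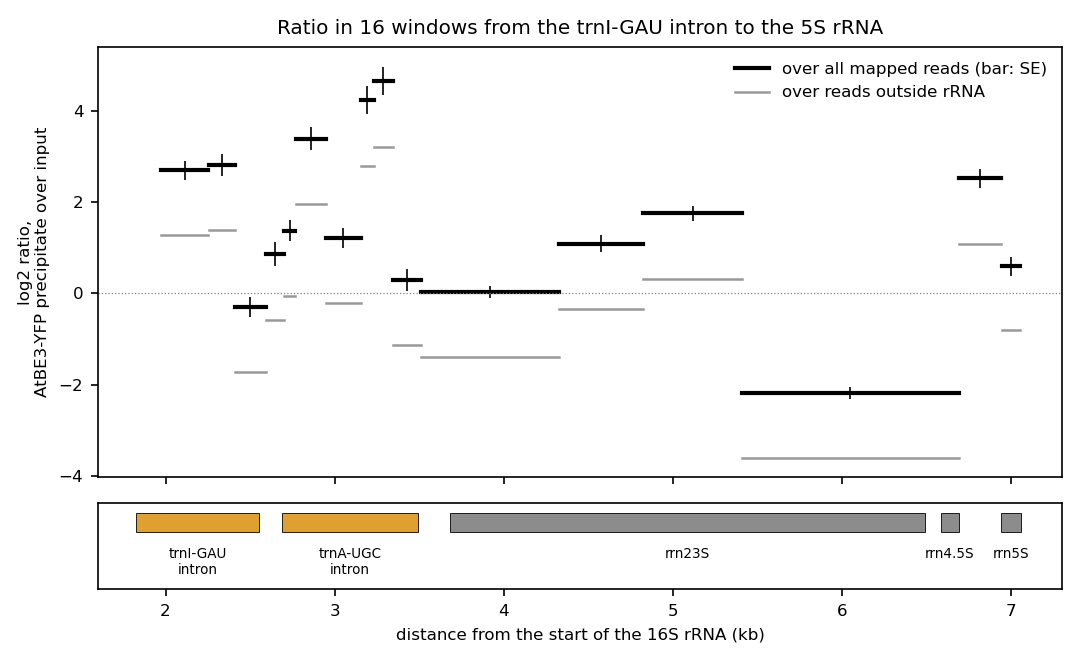
Log2 ratio of AtBE3-YFP precipitate to input (y axis) in 16 windows against the distance from the start of the 16S rRNA (x axis, kb); black lines use all mapped reads with their SE, grey lines use reads outside the rRNAs, and the boxes show the annotated introns and rRNAs. The highest window, at 4.65, lies in the trnA-UGC intron, the 3′ part of the 23S rRNA is at -2.18, and the spacer before the 5S rRNA is at 2.52.

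The spacer between the 4.5S and 5S rRNAs (nt 107703 to 107954) is cut away from the mature rRNAs, and it did not follow them. Its density was 22019, 24573 and 30328 in the precipitates, against 4471, 4181 and 4770 in the inputs. The log2 ratio of 2.52 ± 0.21 (adjusted p = 1.1e-10) was close to the median of the 22 features.

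psbA had by far the highest density of any feature in the precipitates, but not all of its ratio could be measured. The 211096, 192965 and 200584 of the precipitates amounted to 22.4%, 20.5% and 21.3% of all mapped plastid reads. In the inputs the 5′ part of psbA lies in a segment that runs on beyond the gene, so a lower limit was set after the data had been seen by giving psbA every input read of the segments that touch it (nt 84 to 6628, minus strand). These were 6.99%, 6.33% and 7.18% of the input reads. psbA reads were thus at least 3.13-fold higher in the precipitates, at 21.4% ± 0.967 against at most 6.83% ± 0.448 (SD, n = 3 each; exact two-sided permutation test, p = 0.1, the smallest possible), and the lowest pool gave 2.97-fold. Over reads outside the rRNAs the same limit was 27.5% ± 2.19 against at most 23.5% ± 0.929, which is at least 1.17-fold.

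A window in the 3′ part of the psbA coding sequence was resolved in both tables (nt 629 to 802, minus strand). Its density was 192575, 165525 and 213589 in the precipitates, against 42960, 36889 and 42773 in the inputs. The log2 ratio of 2.22 ± 0.13 (adjusted p = 1.04e-12) was below the median feature, and under DESeq2's size factors it was -0.03. Within the precipitates the 5′ part of the gene was the densest, with 312562, 283991 and 331492 at nt 1168 to 1436. The rank of psbA among the ratios was not established, since this window is 174 nt of a gene of 1062 nt.

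The tested coding genes were all higher in the precipitates over all mapped reads, 13 of 13, with a median log2 ratio of 2.74; this count is read against the 81.8% of all 22 features called higher, and so are those of the lists that follow. Over reads outside the rRNAs 12 of the 13 were called higher, with a median of 1.32, and under TMM or DESeq2 the lowest of them turned negative (psaB, psaA, atpE and rbcL). Their densities in the precipitates ranged from that of ycf1 to that of psbN.

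Among the genes of photosystem II, which splits water and passes electrons on, 2 of 15 could be tested and both were higher (81.8% of all features). psbN, an assembly factor encoded on the strand opposite to the psbB operon, had densities of 40342, 29725 and 45644 in the precipitates, against 4237, 3825 and 3870 in the inputs. The log2 ratio was 3.27 ± 0.17 (adjusted p = 1.86e-10). psbB, which encodes the CP47 antenna protein, had 8624, 9973 and 8830 in the precipitates, against 1613, 1503 and 1490 in the inputs, a log2 ratio of 2.57 ± 0.14. The groups did not overlap for either gene.

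Of the 5 genes of photosystem I, 3 were tested and 3 were higher (81.8% of all features). psaC, which encodes the subunit with the terminal iron-sulfur clusters, had 5637, 6114 and 5675 in the precipitates, against 982, 787 and 834 in the inputs, with a log2 ratio of 2.74 ± 0.14. psaB, which encodes a core subunit of the reaction centre, had 6164, 7497 and 7612 in the precipitates, against 1942, 1641 and 1666 in the inputs, with a log2 ratio of 2.02 ± 0.15. No precipitate overlapped an input for either gene, although under TMM and DESeq2 the ratio of psaB was negative. Only 56.1% of psaB was resolved in the precipitates, and part of the rest lies in a segment (nt 38761 to 41796) that also holds psaA.

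The ATP synthase was the best covered complex, with 5 of 6 genes tested and all 5 higher, where 81.8% of all features were. Their log2 ratios spanned 1.67 to 3.21. atpI, which encodes subunit a of the membrane part, had 2690, 2983 and 3183 in the precipitates, against 311, 308 and 340 in the inputs, with a ratio of 3.21 ± 0.14 (adjusted p = 9.31e-11). atpE, which encodes the epsilon subunit, had 5889, 6024 and 7618 in the precipitates, against 2066, 1782 and 2273 in the inputs, with a ratio of 1.67 ± 0.15. Over reads outside the rRNAs atpE was at 0.25 and was not called (adjusted p = 0.0466). Part of the input reads given to atpE belong to a segment that also holds the 5′ exon of trnV-UAC.

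rbcL had 32058, 36558 and 35615 in the precipitates, against 8815, 7107 and 7966 in the inputs. Its log2 ratio of 2.13 ± 0.14 (adjusted p = 1.97e-09) was below the median of the 22, so the gene with the second highest share of coding reads, 5.00% ± 0.342 against 1.15% ± 0.123, did not have a high ratio. petD, which encodes subunit IV of the cytochrome b6f complex, was the only one of 6 genes of its list tested, with 9760, 9881 and 10812 in the precipitates, against 1494, 1313 and 1389 in the inputs and a ratio of 2.86 ± 0.14. ycf1, a long reading frame of the inner envelope import machinery, had the highest ratio of all features at a low density. It had 328, 370 and 416 in the precipitates, against 42.2, 32.0 and 34.4 in the inputs, and a log2 ratio of 3.35 ± 0.16.

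**Figure D3:**
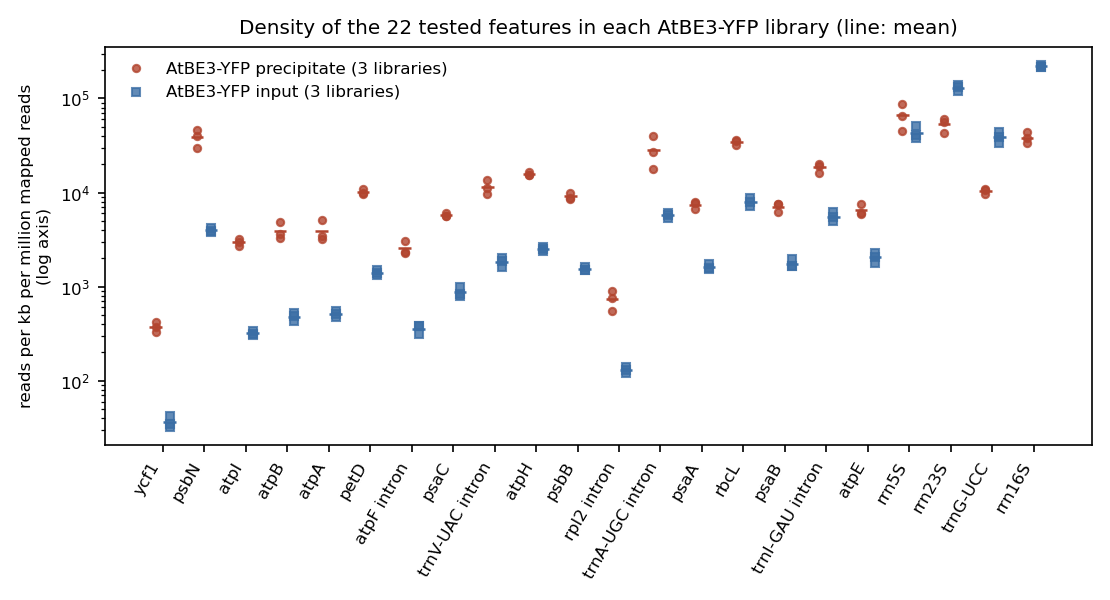
Density of each of the 22 tested features (x axis, ordered by log2 ratio from high to low) in reads per kilobase per 1e6 mapped reads (y axis, log scale), with circles for the 3 AtBE3-YFP precipitates, squares for the 3 inputs and lines for the means. The groups are apart for every feature but the 5S rRNA, and the precipitates spread most for the trnA-UGC intron, between 17732 and 40026.

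No gene of the NDH complex, the RNA polymerase or the ribosomal proteins was resolved in both tables. They were covered by the 95 segments of the precipitate table of 100 nt or more, with input reads apportioned onto them, of which 69 were higher (72.6%) and 19 lower (20.0%). Of these 95 stretches 31 were matched by input segments of their own over at least 80% of their length, a limit set after the data had been seen, and the stretches named in this paragraph were picked from them after their values were seen. The stretch with rpoB, rpoC1, rpoC2 and rps2, which encode RNA polymerase subunits and a ribosomal protein (nt 14902 to 28610, minus strand), had 201, 243 and 246 in the precipitates, against 27.8, 23.5 and 28.0 in the inputs. Its log2 ratio was 3.12 ± 0.15. The stretch with rpoA and 5 ribosomal protein genes (nt 74402 to 81406, minus strand) was at 3.19 ± 0.16, and the stretch with ndhE, ndhG and ndhI (nt 117622 to 120914, minus strand) at 3.38 ± 0.14. The stretch with ndhF and ndhD (nt 109062 to 117287, minus strand) had 565, 543 and 571 in the precipitates, against 157, 153 and 191 in the inputs. At 1.74 ± 0.13 it was the lowest of the 20 matched stretches that hold neither rRNA nor an intronless tRNA gene, so the stretches with NDH genes did not have a common ratio.

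The stretches that hold tRNA genes without introns had lower ratios than the stretches that hold neither these nor rRNA. Among the 31 matched stretches, the 9 with such a tRNA gene had log2 ratios of -1.97 to 1.04, with a median of 0.21, and the 20 others had 1.74 to 3.66, with a median of 3.11. The ranges did not overlap, and with reads outside the rRNAs as the library size all 9 were called lower and all 20 higher, while under TMM the lowest of the 20, with ndhF and ndhD, was at -0.19. This grouping was made after the values were seen and was not tested as such. The lowest of the 9 holds trnR-UCU and trnC-GCA (nt 9439 to 28040, plus strand), with 85.9, 103 and 121 in the precipitates, against 359, 396 and 458 in the inputs. The highest, at 1.04 ± 0.12, holds psbC, psbZ, trnG-GCC and trnS-GGA.

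**Figure D4:**
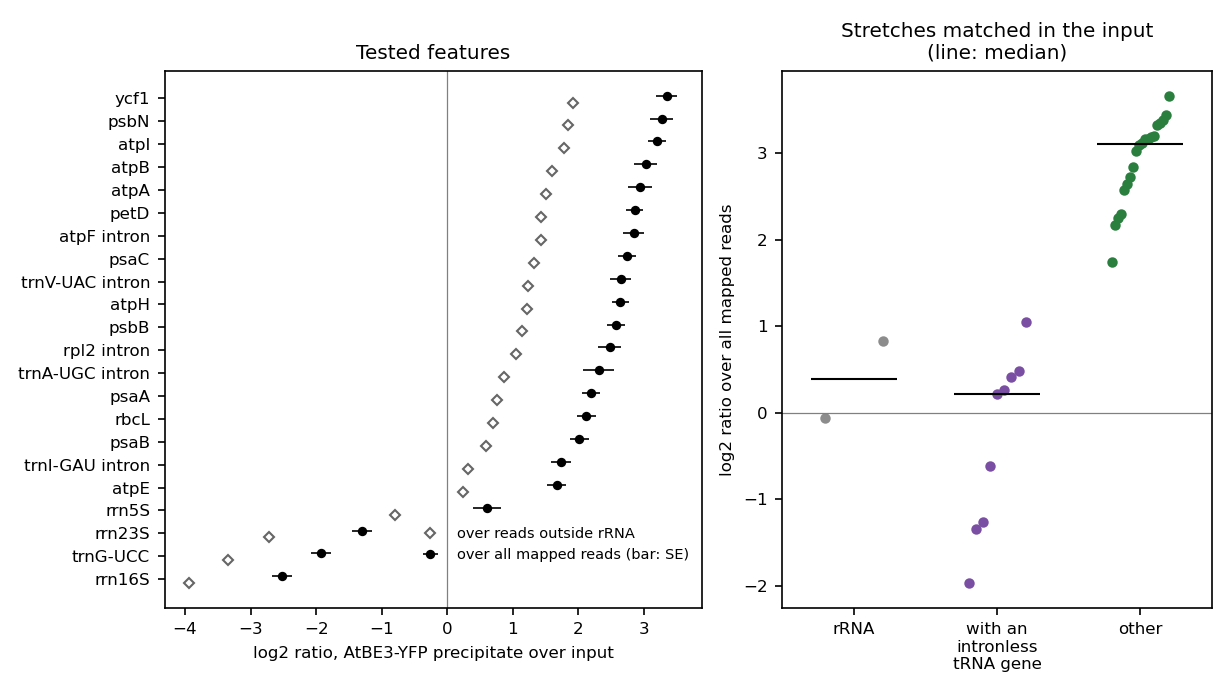
Log2 ratios of AtBE3-YFP precipitate to input for the 22 tested features (left, x axis; filled circles over all mapped reads with SE, open diamonds over reads outside the rRNAs) and for the 31 matched stretches by what they hold (right, y axis; points are stretches and lines are medians). The features between ycf1 and atpE lie between 3.35 and 1.67 over all mapped reads, and the 9 stretches with an intronless tRNA gene lie below all 20 others.

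Levels of the tRNAs themselves could be read mainly in the inputs. Of 24 intronless tRNA genes, 9 were resolved in the input table and 0 in the precipitate table, where they lie in long segments. The 9 had mean input densities of 11043 (trnN-GUU) to 57342 (trnE-UUC), which is above the 7962 of rbcL. trnH-GUG, which lies at the end of the precipitate segment that also covers the region 3′ of psbA, had 38101, 42641 and 51901 in the inputs, and the 44408, 42500 and 48012 of the precipitates are those of the whole segment and not its own.

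trnG-UCC, a glycine tRNA with an intron, was the only tRNA tested of the 6 with introns. Its joined exons had densities of 10513, 9665 and 10803 in the precipitates, against 33465, 38941 and 44336 in the inputs. The groups were far apart and the log2 ratio was -1.92 ± 0.15 (adjusted p = 1.15e-08). The value rests on the 3′ exon, since the 5′ exon has no segment of its own in either table. Its intron was resolved in the input only, and the stretch of the precipitate table that covers it (nt 7894 to 9352, plus strand) had a log2 ratio of 2.25 ± 0.13, against which the exons were lower under every scaling. The joined exons are 72 nt and the 5S rRNA is 121 nt, both longer than the 60 nt that a read could have. The precipitate RNA was not fragmented by heat. The paper describes nucleases of the stroma and of the bead incubation that cut RNA where proteins do not protect it. The part of read length and fragmentation in the low tRNA values was not tested.

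Introns were higher in the precipitates of the control bait too. All 5 tested introns are among the 7 listed as MatK targets, and 5 of 5 were higher over all mapped reads, with a median log2 ratio of 2.48 beside 2.53 for the 22 features; under DESeq2 those of trnI-GAU and trnA-UGC were negative, and under TMM that of trnI-GAU. Both the 5 of 5 and, over reads outside the rRNAs, the 3 of 5 called higher were near the shares of all features, 81.8% and 68.2%. The atpF intron had 2295, 3065 and 2346 in the precipitates, against 380, 314 and 382 in the inputs, with a log2 ratio of 2.85 ± 0.16. The trnV-UAC intron had 11237, 13537 and 9755, against 1887, 1625 and 2005 in the inputs, with 2.65 ± 0.16. The rpl2 intron, of low density, had 552, 757 and 898, against 139, 121 and 131 in the inputs, with 2.48 ± 0.18. None of these groups overlapped.

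The introns of the rRNA operon were denser and more uneven. The trnI-GAU intron had 15976, 20302 and 19137 in the precipitates, against 5010, 5455 and 6170 in the inputs, and a log2 ratio of 1.74 ± 0.15. Only 79.0% of it was resolved in the inputs. Its 3′ end lies in a window (nt 103421 to 103607) that runs on past the intron end at nt 103566. That window had input densities of 10760, 12350 and 14764 and a ratio of -0.30 ± 0.22. The windows before it were at 2.69 ± 0.21 and 2.81 ± 0.24. The part of bases outside the intron in the ratio of 1.74 was not tested. The trnA-UGC intron had 17732, 27251 and 40026 in the precipitates, against 5311, 5727 and 6096 in the inputs, and a ratio of 2.31 ± 0.24. Its coefficient of variation over the precipitates, 39.5%, was the highest of the 22 features, whose median was 12.8% in the precipitates and 8.40% in the inputs. The window of highest ratio lay near its 3′ end (nt 104243 to 104355), with 31838, 54101 and 91278 in the precipitates, against 2284, 2397 and 2351 in the inputs and a log2 ratio of 4.65 ± 0.31. The following window (nt 104356 to 104521) begins with the lower-case part of the trnA-UGC line. It runs past the end of the intron at nt 104503 into the 3′ exon. It had 12895, 17814 and 25535 in the precipitates, against 14052, 15023 and 16631 in the inputs, and a ratio of 0.30 ± 0.24 that was not called. With plain segment length in place of apportioned reads, this following window was at 1.70 and was called. The window with the 5′ exon (nt 103608 to 103713) had input densities of 15570, 16094 and 21241. The part of the exon bases in the ratio of 0.30 was not tested. In the AtMKIP1-YFP precipitates the window of highest ratio had densities of 699590, 642075 and 664487, which are above those of all 3 AtBE3-YFP precipitates; whether this bears on the AtBE3-YFP values was not tested.

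The 10 features of highest density in the AtBE3-YFP precipitates were psbA, the rRNAs rrn5S, rrn23S, rrn4.5S and rrn16S, the tRNA genes trnH-GUG and trnA-UGC, psbN, rbcL and the trnA-UGC intron. trnA-UGC exons had 29019, 36018 and 67624, so that they spread over the precipitates as their intron did. Of these 10, psbA, rrn4.5S, trnH-GUG and trnA-UGC were not resolved in both tables.

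The 5 highest and the 5 lowest of the 95 stretches had no input segments of their own. The 5 highest log2 ratios, 4.46 to 6.72, were at nt 1 to 117 and 74380 to 74563 of the plus strand, in 2 parts of psbA and at rps7, a gene of a small-subunit ribosomal protein. The 5 lowest, -5.07 to -4.01, were at nt 1776 to 3505 of the minus strand, in the trnK-UUU intron and matK. The input densities there, 8571 to 9544, are those of a single long segment that psbA shares with trnK-UUU and matK, and the psbA parts at nt 815 to 1436 were set against the same input segment.

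Whether these ratios were particular to the control bait was tested against AtMKIP1-YFP, as the difference between the log2 ratio of AtBE3-YFP and that of AtMKIP1-YFP over all 12 libraries. The difference was positive and called for 12 of the 22 features (54.5%) and negative and called for 5 (22.7%), with a median of 0.78. The 5 negative features were the 5 introns, from -3.33 ± 0.21 for the trnA-UGC intron through -2.74 ± 0.22 (rpl2), -2.72 ± 0.21 (atpF) and -1.701 ± 0.21 (trnI-GAU) to -0.99 ± 0.21 for the trnV-UAC intron. From the same libraries the paper reports these introns as enriched in AtMKIP1-YFP over AtBE3-YFP precipitates, with relatively low enrichment for trnV. The segment borders that decide which features were tested were drawn from fold changes between the same baits. Of the introns listed as MatK targets 5 of 7 were tested, and of the other introns 0 of 13. The 5 introns are therefore not an independent choice for this contrast. The largest positive differences were 1.53 ± 0.20 for psbN, 1.31 ± 0.22 for trnG-UCC, 1.31 ± 0.20 for atpE, 1.17 ± 0.20 for atpH, which encodes subunit c of the ATP synthase ring, and 1.15 ± 0.20 for psaC. The rRNAs showed no called difference, at 0.09 ± 0.20 for 16S, 0.25 ± 0.20 for 23S and 0.10 ± 0.21 for 5S. Introns took 6.29% to 8.48% of the reads in the AtBE3-YFP precipitates and 34.1% to 35.2% in the AtMKIP1-YFP precipitates, and the part of this share in the positive differences was not tested. With TMM factors the median difference was 0.25 and 7 features were called positive, and with DESeq2 it was 0.098 and 6 were, with the 5 introns called negative under both.

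**Figure D5:**
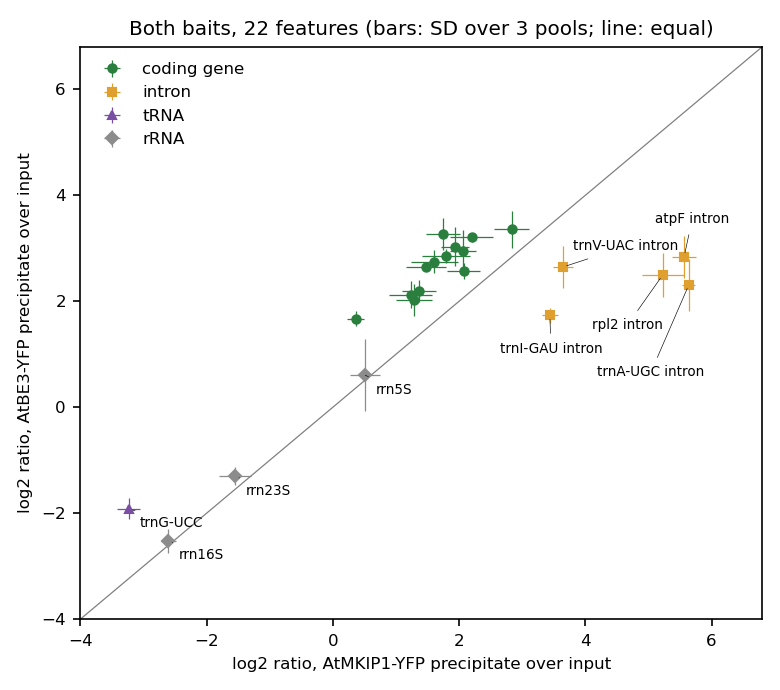
Log2 ratio of precipitate to input, from mean densities, for AtBE3-YFP (y axis) against AtMKIP1-YFP (x axis) over the 22 tested features, with bars for the SD over 3 pools and a line of equal ratios. The 5 introns lie below the line, the 13 coding genes and trnG-UCC above it, although psbB and ycf1 fall below under TMM and DESeq2, and the 3 rRNAs lie close to it.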

How the data were processed

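RNA of anti-YFP precipitates (GFP-Trap beads) and of input extracts was sequenced with the NEXTflex small RNA kit. The authors trimmed reads with Cutadapt, kept 18 to 60 nt, mapped them with STAR to the TAIR10 plastid genome without the second inverted repeat, and removed duplicates with UMI-tools; versions are not given in the sources used here. The deposited counts are whole reads per strand-specific DiffSegR segment, not normalized, and a read spanning a border is counted on both sides. By the paper, DiffSegR joins stretches of similar fold change, here between the baits. The borders, and with them the choice of tested features, depend on that contrast. The other deposited values are the authors' numbers of raw, trimmed and mapped reads. Deposited fold changes and p-values between the baits were not used.

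Each count was multiplied by the overlap with a feature and divided by segment length plus read length minus 1, with the effective read length (31.7 to 36.7 nt) solved per library so that the reads sum to the mapped reads. A feature was tested where segments at least 50% inside it covered at least 50% of it in both tables. The 5S rRNA was placed by sequence match to its annotated copy, and 1 tRNA gene was moved to the strand on which its anticodon reads. Rounded reads were compared in edgeR 4.0.16 under R 4.3.3 by the quasi-likelihood F test, with library sizes set to mapped reads, genes filtered by filterByExpr (count 10, total 15) and Benjamini-Hochberg adjusted p under 0.01; SE is the log2 ratio over the square root of F. DESeq2 1.42.0, TMM, other read lengths, plain segment length, other filters and leaving out libraries were alternatives. The fits were tested on simulated data. Python 3.11.15 with scipy 1.17.1 was used for exact permutation tests.

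Same-numbered precipitates and inputs share a seedling pool by the methods, which is the source of the pairing. Their deviations from group means correlated at -0.16, -0.12 and -0.19 over the 22 features, and at 0.007, 0.057 and 0.14 over the 95 stretches. P-values and SEs of the fits rest on the spread between 3 pools and on a dispersion shared across features. In the test between baits the SE was 0.20 for atpH and 0.21 for the 5S rRNA. The SDs of their AtBE3-YFP ratios over pools were 0.047 and 0.68. A p-value therefore does not measure the spread of its own feature alone. Members, gene lists and tests were chosen with earlier results of these data known. Named are each rRNA, each tRNA and intron tested, psbA, rbcL, the highest and lowest tested member of each list, the 10 densest features, the 5 highest and lowest stretches and the 5 largest called differences between baits in each direction, plus stretches and windows said to be chosen later.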

Additional observations from a re-analysis of the deposited data

Results flagged for a closer look

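The difference between the baits in the log2 ratio of precipitate to input, AtBE3-YFP minus AtMKIP1-YFP, passed its test for each of the 10 features below; groups of 3 libraries were not examined for single deviating samples. It was negative for the introns of trnA-UGC (-3.33), rpl2 (-2.74), atpF (-2.72), trnI-GAU (-1.701) and trnV-UAC (-0.99). It was positive for psbN (1.53), trnG-UCC (1.31), atpE (1.31), atpH (1.17) and psaC (1.15). For the introns, the paper already reports enrichment in AtMKIP1-YFP over AtBE3-YFP precipitates of the same libraries. The choice of tested features rests on segment borders drawn from the same contrast. Leaving out any 1 of the 12 libraries kept the direction of all 10, with ranges such as -3.66 to -3.08 for the trnA-UGC intron and 1.39 to 1.69 for psbN. Under DESeq2 the call of trnG-UCC was lost (0.64, DESeq2 adjusted p = 0.019; 0.79 with TMM, called), and the positive differences were smaller, at 0.47 for psaC and 0.48 for atpH.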

How the results depend on the processing

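The calls over all mapped reads changed little with read length, plain segment length, the filter on low counts or single libraries: leaving out each library gave 21 to 22 called features, 85 to 89 called stretches, 25 to 28 called matched stretches, 37 to 41 called windows, 17 to 19 called differences between baits and -50.6 to -46.9 percentage points for the rRNA share. The replicate block, which joins the fractions of a pool, changed the call of the 5S rRNA alone (0.57) among the features and named stretches and windows, and gave 19 features higher and 3 lower. Requiring 80% resolution left 8 called features and 5 called differences between baits, and a minimum length of 300 nt left 55 called stretches, since fewer were tested; DESeq2 called 11 differences between baits, and the cause was not tested.

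Library scaling moved signs, given here for the features and windows named in the report and not for all 44 windows. Over reads outside the rRNAs the ratios turned negative for the 5S rRNA (-0.79) and for the windows at nt 104356 (-1.14), 104522 (-1.40) and 105340 (-0.34), and 53 stretches were higher and 32 lower (windows, 24 and 10). With TMM they turned negative for psaB (-0.20), psaA (-0.022), atpE (-0.55), rbcL (-0.086), the trnI-GAU intron (-0.49), the 5S rRNA (-1.58) and the windows at nt 104356 (-1.55), 104522 (-1.79), 105340 (-0.73) and 105837 (-0.066), and 38 stretches were higher and 34 lower (windows, 23 and 15). With DESeq2 they turned negative for psaB (-0.44), psaA (-0.26), atpE (-0.79), rbcL (-0.33), the introns of trnI-GAU (-0.72) and trnA-UGC (-0.17), the 5S rRNA (-1.82) and the windows at nt 104356 (-1.97), 104522 (-2.21), 105340 (-1.15), 105837 (-0.48) and 629 (-0.027), and 34 stretches were higher and 37 lower (windows, 19 and 19). A read length of 60 nt turned the window at nt 104356 (-0.12), and leaving out single libraries moved the window at nt 104522 between -0.049 and 0.14. TMM and DESeq2 centre the features on each other by construction. Depth limits the precipitates, with at most 257634 mapped reads against at least 2241732 in the inputs. The windows, matched stretches and psbA limit were chosen after seeing the data.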
